A study of Mus musculus with 8 samples.

Results

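The mitochondrial solute carriers and the translocases that import proteins into mitochondria were followed in C2C12 myotubes given a control siRNA or an siRNA to macroH2A1.1. The members were all non-control probes named Slc25a with a number, Timm with a number or Tomm with a number on the array. This gave 101 of 55681 probes and 71 of 23448 named genes, of which 47 were carriers and 24 were translocases. C2C12 is a mouse myoblast line whose cells fuse into contractile myotubes. The histone variant macroH2A1 is spliced into several forms, of which macroH2A1.1 can bind ADP-ribose through its macrodomain. Both groups were myotubes at day 4 of differentiation that carried either a control siRNA or one directed at macroH2A1.1. Each group held 4 samples, each on its own 1-colour array of 1 slide. One label describes the treated cells as KO, but their titles and the design name an siRNA, which was followed here. The replicates are called biological with no word on separate cultures, and p-values therefore cover only the spread among these samples.

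Carriers of the Slc25a family span the inner mitochondrial membrane and exchange small molecules such as ADP and ATP, phosphate, carboxylates, amino acids, cofactors and iron between cytosol and matrix. Most mitochondrial proteins are made in the cytosol and enter through the TOM complex of the outer membrane. Presequence proteins then pass through TIM23, while the carriers themselves are escorted by small Tim chaperones to TIM22, which inserts them into the inner membrane. Muscle fibres depend on the adenine nucleotide carriers for ATP export.

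Levels are given as log2 processed signal relative to the 75th percentile of the same array, and differences as macroH2A1.1 siRNA minus control on the log2 scale. Levels of different genes were not compared with each other. Of the 47 carriers, 37 were well above background on every array of one group or both and were tested, as were 22 of the 24 translocases. Slc25a2, Slc25a15, Slc25a18, Slc25a21, Slc25a23, Slc25a31, Slc25a41, Slc25a48, Slc25a53, Slc25a54 and Timm8a2 were not well above background on any array. Tomm20l was above background on 3 control arrays and 1 macroH2A1.1 siRNA array and was not tested. Of the tested members, Slc25a34 was above background on 3 of 4 control arrays and Slc25a43 on 3 of 4 macroH2A1.1 siRNA arrays, and the other 57 were measured on all 8 arrays.

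The probes below were chosen by hand to show the stretch of transcript that a value refers to. The first is the dimmer probe of Slc25a37, the second crosses an intron of Slc25a33, the third reports Slc25a4, and the last is the dimmer probe of Tomm40. All are given in transcript orientation with mm9 positions on the minus strand, at chr14:69902797-69902856, chr4:149123432-149126565, chr8:47292828-47292887 and chr7:20296115-20296174. Exon and UTR annotation of mm9 was not used here.
Slc25a37: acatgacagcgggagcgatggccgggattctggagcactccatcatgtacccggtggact
Slc25a33: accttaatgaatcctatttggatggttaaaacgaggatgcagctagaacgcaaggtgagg
Slc25a4: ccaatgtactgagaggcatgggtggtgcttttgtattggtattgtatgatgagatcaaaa
Tomm40: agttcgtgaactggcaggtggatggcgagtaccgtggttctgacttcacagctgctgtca

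Both groups lay in each of the 2 rows of the slide, and between 46.9% and 49.8% of 59305 non-control spots were well above background per array. The targeted gene, Macroh2a1, did not overlap between groups on any of its 3 probes and was lower after the siRNA: the probe listed for 2 of its 4 transcripts differed by -1.42 (SE 0.25). The 2 probes listed for all 4 transcripts differed by -0.99 and -1.11. In a principal component analysis over the tested genes, macroH2A1.1 siRNA replicate 2 stood apart on component 1 at 59.9, with the other 7 arrays between -27.3 and 7.9. Samples with the same replicate number deviated from their group means together, with correlations from 0.412 to 0.661. Each result below was therefore read from limma without a block and from limma with the replicate number as a block, named the paired comparison. Below, rose and fell are used only for genes with adjusted p under 0.05 in the paired comparison.

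Differences were small in both families. Without the block, 0 of the 59 tested members passed limma at an adjusted p of 0.05, against 3 of 13578 genes (0.0221%), and 8 members had an unadjusted p under 0.05 (12.2% of all genes). In the paired comparison 5 of 59 members passed (8.47%), near the 8.23% of all genes called there. Slc25a34, Tomm40l and Timm22 rose, against 4.26% of all genes, and Slc25a37 and Slc25a30 fell, against 3.98%. With limma run on each kept probe and adjusted over 24988 probes, the paired adjusted p was 0.039 for Slc25a34 and 0.050 for Slc25a37. It was 0.065 for Tomm40l, 0.070 for Slc25a30 and 0.077 for Timm22. No member differed by 1.5-fold or more other than Slc25a34, a dim gene whose difference was smaller under other background handling. All 5 paired calls were lost without the arrays of replicate 1 or of replicate 3, where 0 of all 13578 genes passed. Without replicate 2, Slc25a34 still passed, among 140 genes, and without replicate 4, Slc25a34 and Tomm40l did, among 637. The 5 genes kept their sign in every such fit. In bulk RNA, fewer cells of a type and less RNA per cell cannot be told apart.

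**Figure D1:**
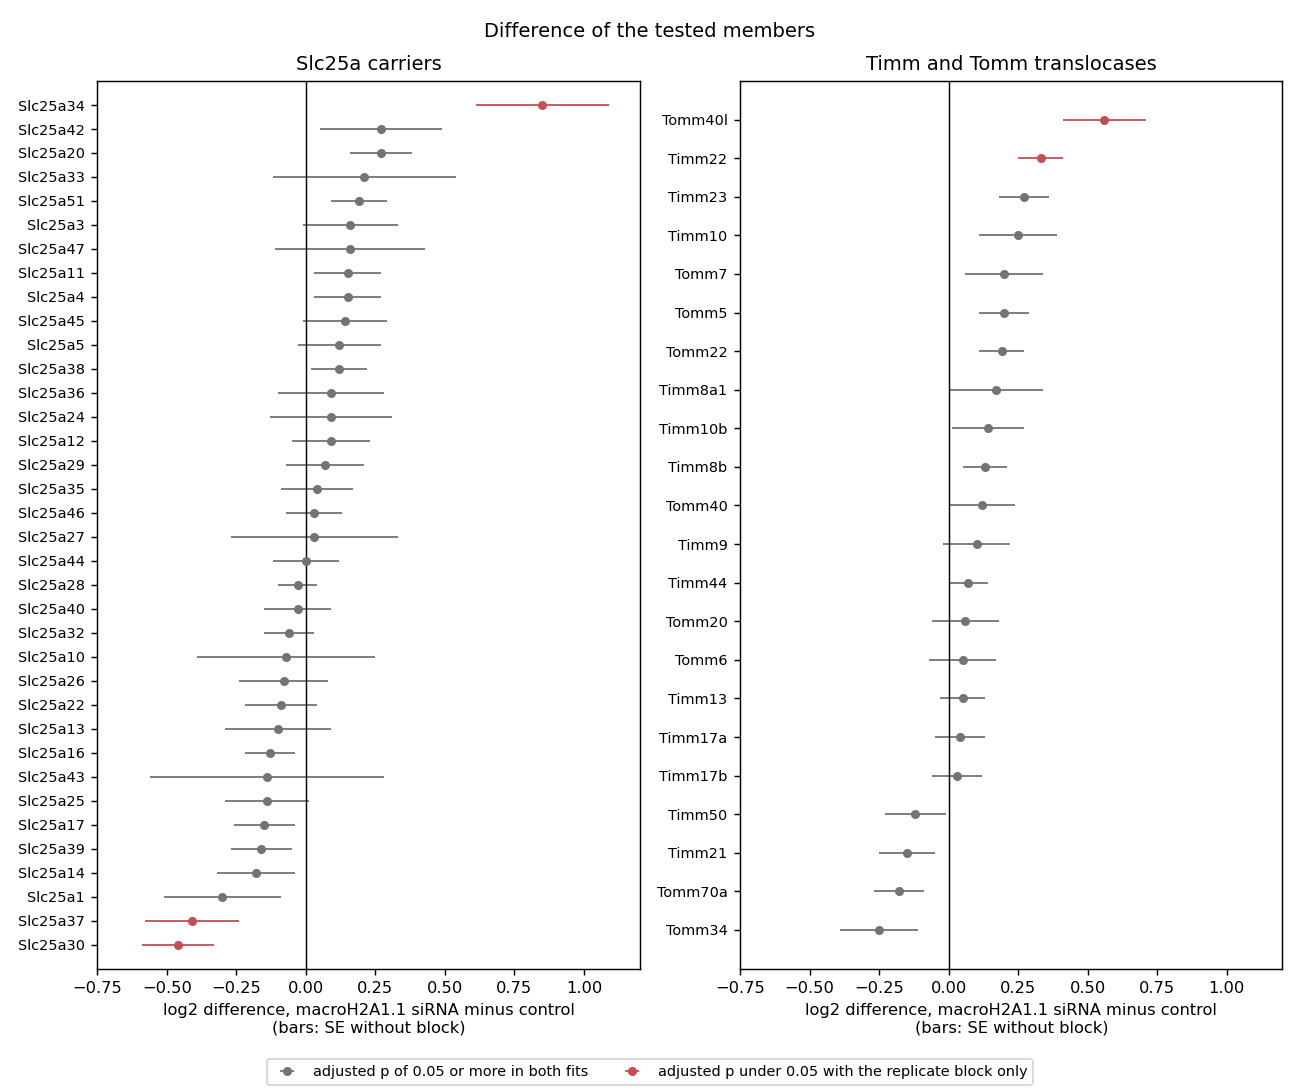
Log2 difference of 36 of the 37 tested carriers (left) and all 22 tested translocases (right), macroH2A1.1 siRNA minus control, as points with SE bars from limma without the block (n = 4 arrays per group). Red points are the 5 genes with adjusted p under 0.05 in the paired comparison. Carriers lie on both sides of 0, from -0.46 to 0.85, and 18 of 22 translocases lie above 0.

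As a family the carriers were centred near 0, with a median difference of 0.03 and 20 of 37 above 0, against a median of 0.00 over all genes. Its roles gave medians between -0.07 and 0.11. The translocases had a median difference of 0.11, with 18 of 22 above 0 (81.8%, against 50.1% of all genes). That count uses the probe that stands for each gene. With the probes of a gene averaged, Timm17a, Timm9 and Tomm20 lay below 0, at -0.01, -0.03 and -0.02. Of the 22, 10 were higher in all 4 pairs (45.5%, against 19.5% of all genes) and 3 were lower in all 4 (18.2% of all genes). Related carriers and channels outside the naming rule leaned the same way. Of 19 tested there, 15 were above 0 (78.9%) and 10 were higher in all 4 pairs (52.6%). In 6 members the groups did not overlap (8.02% of all genes). Tomm40l, Timm22, Tomm22, Tomm5 and Slc25a34 lay higher with macroH2A1.1 siRNA (4.3% of all genes) and Slc25a30 lower (3.72% of all genes).

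The level of a family on an array, taken as the median deviation of its genes from their own means, showed how far this rested on single arrays. Translocase levels were -0.11, 0.01, 0.01 and -0.06 in control replicates 1 to 4 and 0.06, 0.12, 0.04 and 0.01 in macroH2A1.1 siRNA replicates 1 to 4. Every pair was higher with macroH2A1.1 siRNA, and the groups met at 0.01. Without macroH2A1.1 siRNA replicate 2 the translocase median was 0.05, and it was 0.06 when the probes of a gene were averaged. Carrier levels were -0.09, 0.05, -0.06 and 0.01 in controls and 0.07, 0.15, -0.01 and -0.08 with macroH2A1.1 siRNA, so the carrier groups overlapped. Within the first row of the slide, which holds replicates 1 and 2, the medians were 0.17 for translocases and 0.07 for carriers, and within the other row 0.06 and -0.03.

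Myotube markers were mostly higher in the same samples. All 12 listed markers were tested, 7 rose and 0 fell in the paired comparison, Myh4 stood at -1.05 (limma paired adjusted p = 0.060), their median difference was 0.36, and their level ranged from -0.48 to 0.14 in controls and from -0.11 to 0.49 with macroH2A1.1 siRNA. The macrophage genes Ptprc, Mrc1 and Lyz2, the adipocyte genes Adipoq and Plin1 and the endothelial genes Cdh5 and Tek were not above background on any array. Other markers of the same lists were above background on all 8 arrays, namely Csf1r, Itgam, Cd68 and Cd14, Pparg and Cebpa, and Pecam1 and Kdr. Cd68 stood at 1.32 (limma paired adjusted p = 0.089), with Csf1r at -0.15, Itgam at 0.02, Cd14 at -0.04, Pecam1 at 0.19 and Kdr at -0.12. Macrophage markers had a median of -0.04 (5 of 8 tested, level from -0.25 to 0.08 in controls and -0.18 to 0.25 with macroH2A1.1 siRNA) and endothelial markers 0.04 (2 of 7 tested, -0.15 to 0.14 and -0.14 to 0.18). Only 3 of 8 adipocyte markers were tested, of which Pparg (0.39) and Fabp4 (1.41) rose and Cebpa stood at -0.30. Fabp4 was above background on 6 arrays and so passed the filter through 1 group alone. The 3 markers had a median of 0.39, all 4 pairs higher, and levels from -0.72 to 0.20 and from -0.12 to 0.57. Proliferating myoblast markers, with 9 of 12 tested, had a median of 0.00 and ranged from -1.20 to 1.11 in controls and from -1.12 to 1.29 with macroH2A1.1 siRNA, with replicate 2 the highest in both groups. Fibroblast markers had a median of -0.27, with 8 of 10 tested, of which 1 rose (Fap, not above background on every array) and 3 fell, and levels from -0.05 to 0.43 and from -0.33 to 0.46. Interferon response genes, with 17 of 20 tested and 7 that rose, stood between -1.05 and -0.73 in controls and between -0.62 and 2.39 with macroH2A1.1 siRNA, where replicates 2 and 3 were highest. Of the 7, only Ifit2 and Ifit3 were above background on all 8 arrays, and the other 5 (Ifit1, Usp18, Oasl1, Oas1a and Cxcl10) passed the filter through the macroH2A1.1 siRNA group alone. The part of these markers in the carrier and translocase values was not tested.

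**Figure D2:**
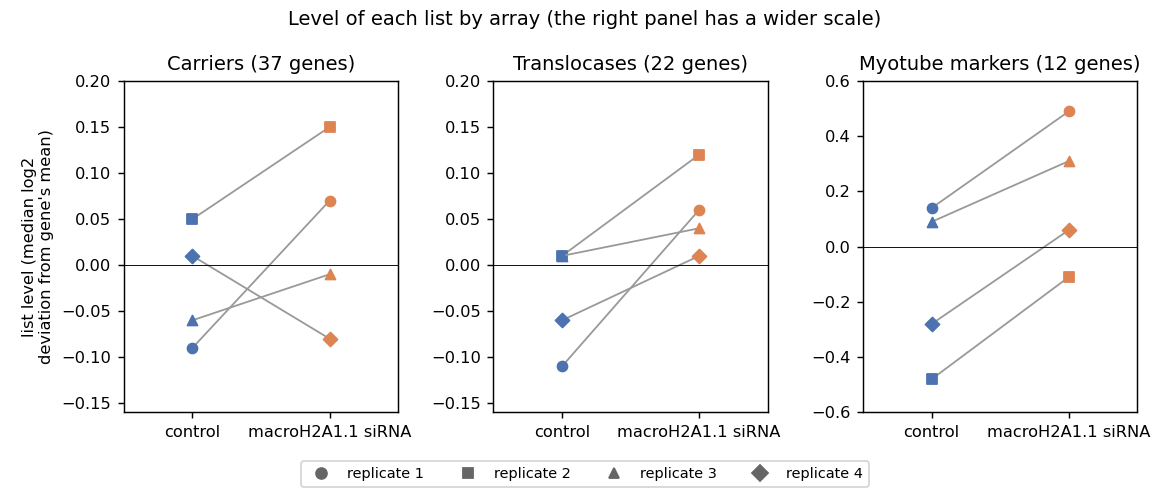
Level of the tested carriers, translocases and myotube markers on each array, as the median log2 deviation of the list's genes from each gene's mean over 8 arrays, with replicates of 1 number joined. Translocase levels are higher with macroH2A1.1 siRNA in every joined pair, carrier levels cross, and myotube markers differ by more, on a wider axis.

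Among the adenine nucleotide and phosphate carriers, 8 of 11 were tested and 0 passed, with a median difference of 0.11. Slc25a4, the ADP/ATP carrier of heart and skeletal muscle, stood at 7.41, 7.82, 7.50 and 7.56 in controls and 7.67, 7.92, 7.66 and 7.63 with macroH2A1.1 siRNA. It was higher in all 4 pairs, by 0.15 on average (SE 0.12, limma adjusted p = 0.699; paired 0.195), and the groups overlapped. Slc25a5, the ADP/ATP carrier of proliferating cells, read 3.98, 4.37, 3.98 and 3.92 in controls and 4.20, 4.52, 4.11 and 3.92 with macroH2A1.1 siRNA. Slc25a5 was higher in 3 of 4 pairs and equal to the printed precision in the fourth, with a mean difference of 0.12 (SE 0.15). Slc25a3, the phosphate carrier, differed by 0.16 (SE 0.17), with pairs 1 and 2 higher and pairs 3 and 4 slightly lower. Slc25a42, a coenzyme A and ADP carrier, differed by 0.27 (SE 0.22), and the peroxisomal carrier Slc25a17 by -0.15 (SE 0.11). The calcium-regulated ATP-Mg/phosphate carriers split, with Slc25a24 at 0.09 (SE 0.22) and Slc25a25 at -0.14 (SE 0.15), the latter lower in all 4 pairs. Slc25a16, whose substrate is taken to be coenzyme A, was also lower in all 4 pairs, at -0.13 (SE 0.09).

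Carriers of carboxylates and of the malate-aspartate shuttle showed no call among 5 tested of 6, with a median of -0.07. Slc25a1, the citrate carrier that supplies cytosolic acetyl-CoA, stood at 1.83, 2.50, 2.14 and 2.13 in controls and 1.40, 2.34, 1.76 and 1.90 with macroH2A1.1 siRNA. It was lower in all 4 pairs, with a mean difference of -0.30 (SE 0.21; paired SE 0.07, paired adjusted p = 0.059 in limma), although the groups overlapped, with replicate 1 the lowest and replicate 2 the highest in both. The aspartate-glutamate carriers Slc25a12 and Slc25a13 differed by 0.09 (SE 0.14) and -0.10 (SE 0.19). Slc25a11, the oxoglutarate carrier, differed by 0.15 (SE 0.12), and the dicarboxylate carrier Slc25a10 by -0.07 (SE 0.32).

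Carriers of amino acids, acylcarnitine and glutathione gave 0 calls among 10 tested of 14, with a median of 0.04. Slc25a20, which brings acylcarnitines into the matrix for fatty acid oxidation, read -0.21, -0.31, -0.27 and 0.09 in controls and 0.10, 0.11, -0.06 and 0.22 with macroH2A1.1 siRNA. It was higher in all 4 pairs, by 0.27 (SE 0.11; paired SE 0.07, limma paired adjusted p = 0.073). Control replicate 4 lay within the range of the other group. Slc25a38, a glycine carrier needed for haem synthesis, differed by 0.12 (SE 0.10). The glutathione carrier Slc25a39 differed by -0.16 (SE 0.11) and its relative Slc25a40 by -0.03 (SE 0.12). Slc25a22, a glutamate carrier, Slc25a26, which brings in S-adenosylmethionine, Slc25a29, which carries basic amino acids, and Slc25a44, Slc25a45 and Slc25a47 lay between -0.09 and 0.16.

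Of the 6 vitamin, nucleotide and iron carriers, all tested, Slc25a37 fell. Slc25a37, mitoferrin-1, carries iron into the matrix. It stood at 3.81, 3.90, 4.16 and 3.56 in controls and 3.27, 3.42, 3.82 and 3.27 with macroH2A1.1 siRNA. Every pair was lower, with a mean difference of -0.41, while control replicate 4 lay below macroH2A1.1 siRNA replicate 3. The SE was 0.17 without the block (limma adjusted p = 0.373) and 0.07 with it (adjusted p = 0.031). The second Slc25a37 probe, whose sequence is printed above, differed by -0.16 (SE 0.26), and with both probes averaged the paired difference was -0.29 (adjusted p = 0.076).

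The other iron carrier, Slc25a28 or mitoferrin-2, differed by -0.03 (SE 0.07) and was lower in 3 of 4 pairs. Slc25a33, a pyrimidine nucleotide carrier, read 2.45, 2.64, 3.05 and 1.75 in controls and 2.64, 3.1, 3.03 and 1.94 with macroH2A1.1 siRNA. Its spread followed the replicate number: replicate 4 was lowest in both groups, and the SE of the 0.21 difference went from 0.33 to 0.09 with the block. Slc25a36, its close relative, differed by 0.09 (SE 0.19), and the folate or FAD carrier Slc25a32 by -0.06 (SE 0.09). The intron-crossing Slc25a33 probe differed by 0.14 (SE 0.31). Slc25a51, the NAD+ carrier of the inner membrane, read 2.50, 2.68, 2.54 and 2.46 in controls and 2.80, 2.88, 2.62 and 2.62 with macroH2A1.1 siRNA. That is a difference of 0.19 (SE 0.10; paired adjusted p = 0.122 in limma), whereas its second probe differed by -0.07 (SE 0.10).

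Of the 9 uncoupling protein homologues and carriers without a settled substrate, 7 were tested, of which 1 rose and 1 fell. Slc25a34, whose substrate is not settled, rose, although it was above background on only 3 of 4 control arrays and so passed the filter through the group in which it was higher. It stood at -3.54, -4.72, -4.07 and -3.87 in controls and -2.88, -3.41, -3.28 and -3.22 with macroH2A1.1 siRNA. All 4 treated samples lay above all 4 controls, with a mean difference of 0.85 (SE 0.24, limma adjusted p = 0.232; paired SE 0.13, adjusted p = 0.026). With probes required above background on all 8 arrays the gene was not tested, and the size of its difference is uncertain. The paired difference was 0.28 after normexp correction (adjusted p = 0.026) and 0.17 in the authors' series values (adjusted p = 0.113).

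Slc25a30, an uncoupling protein homologue known as KMCP1, fell. It read -0.12, -0.13, 0.11 and -0.08 in controls and -0.87, -0.42, -0.39 and -0.39 with macroH2A1.1 siRNA. The groups did not overlap, with macroH2A1.1 siRNA replicate 1 the lowest, and the difference was -0.46 (SE 0.13, limma adjusted p = 0.232; paired SE 0.10, adjusted p = 0.047). The other 5 tested members of this role, namely Slc25a14, Slc25a27, Slc25a35, Slc25a43 and Slc25a46, lay between -0.18 and 0.04. Slc25a43 was near background, with a difference of -0.14 (SE 0.42).

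**Figure D3:**
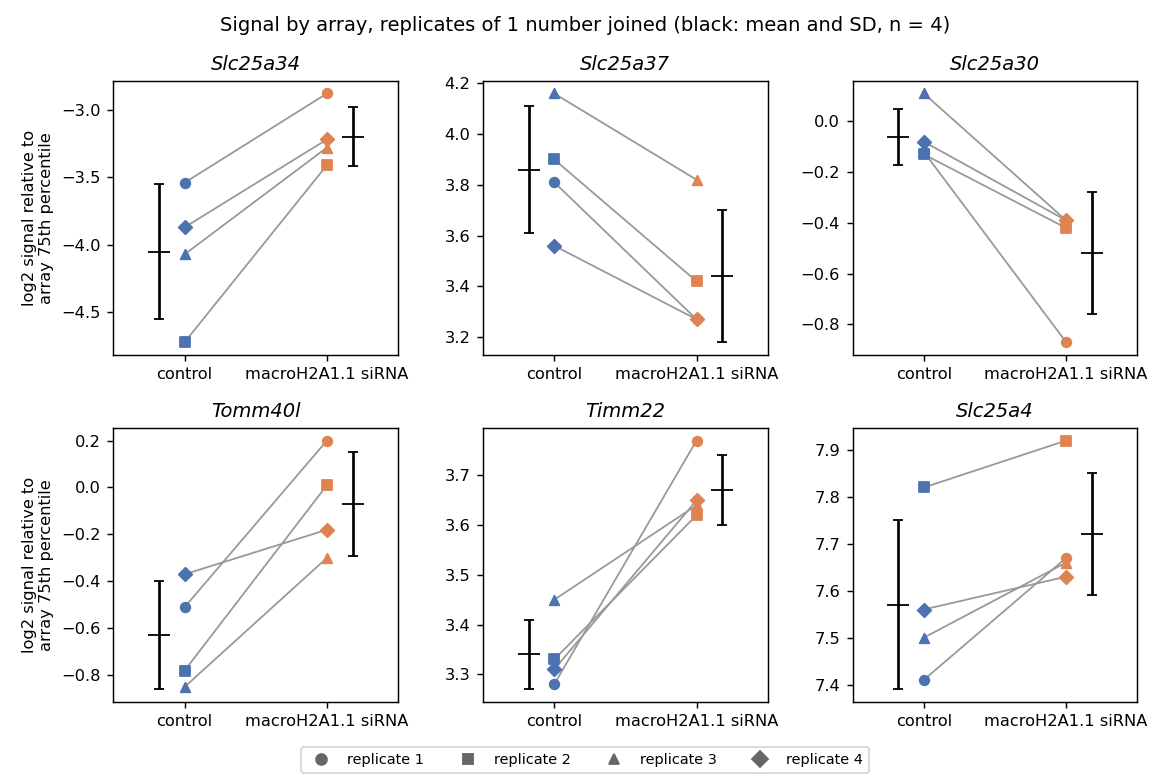
Log2 signal relative to each array's 75th percentile for the 5 members called in the paired comparison and for Slc25a4, with replicates of 1 number joined and black marks for mean and SD (n = 4). Every joined line of the called genes runs 1 way, and the groups of Slc25a34, Slc25a30, Tomm40l and Timm22 do not overlap while those of Slc25a37 and Slc25a4 do. Vertical scales differ between panels.

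In the outer membrane, 9 of 10 TOM genes were tested, with a median of 0.12, 7 above 0 (77.8%, against 50.1% of all genes) and 1 that rose. Tomm40l, a second form of the Tomm40 pore, stood at -0.51, -0.78, -0.85 and -0.37 in controls and 0.20, 0.01, -0.30 and -0.18 with macroH2A1.1 siRNA. The groups did not overlap. The difference was 0.56 (SE 0.15, limma adjusted p = 0.216; paired SE 0.11, adjusted p = 0.045). Tomm40 itself, the pore of the complex, differed by 0.12 (SE 0.12), and its dimmer probe, printed above, by -0.02 (SE 0.12).

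No receptor passed the test, and their differences had both signs. Tomm22, the central receptor, read 2.86, 3.02, 3.06 and 3.13 in controls and 3.19, 3.23, 3.14 and 3.24 with macroH2A1.1 siRNA, a non-overlapping difference of 0.19 (SE 0.08; paired adjusted p = 0.143 in limma). Tomm70a, the receptor that takes in carrier precursors, read 2.04, 1.96, 1.97 and 1.88 in controls and 1.89, 1.92, 1.65 and 1.68 with macroH2A1.1 siRNA, lower in all 4 pairs with a mean difference of -0.18 (SE 0.09; paired adjusted p = 0.162). Tomm20, the presequence receptor, differed by 0.06 (SE 0.12). Its 3 probes gave 0.06, 0.05 and -0.15, where those at 0.06 and 0.05 lie at the same place and differ by 3 bases. Of the small subunits around the pore, Tomm5 stood at 5.52, 5.59, 5.50 and 5.54 in controls and 5.73, 5.91, 5.70 and 5.62 with macroH2A1.1 siRNA, without overlap and higher by 0.20 (SE 0.09; paired adjusted p = 0.115). Tomm7 also differed by 0.20 (SE 0.14) and Tomm6 by 0.05 (SE 0.12), with overlap. The cytosolic co-chaperone Tomm34 was at -0.25 (SE 0.14), lower in 3 of 4 pairs.

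The 6 TIM23 genes, all tested, had a median of 0.03 and 0 calls. Timm23, which forms the presequence channel, was at 5.16, 5.16, 5.38 and 5.08 in controls and 5.46, 5.58, 5.48 and 5.34 with macroH2A1.1 siRNA. It was higher in all 4 pairs, by 0.27 (SE 0.09; paired adjusted p = 0.078 in limma), and its second probe gave 0.25. Its partners Timm17a and Timm17b differed by 0.04 (SE 0.09) and 0.03 (SE 0.09). Timm44, which anchors the import motor, differed by 0.07 (SE 0.07). The remaining subunits Timm50 and Timm21 were lower in all 4 pairs, at -0.12 (SE 0.11) and -0.15 (SE 0.10).

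The TIM22 complex and the small Tim chaperones had a median of 0.14. On the probe that stands for each gene, 7 of 7 tested were above 0 (50.1% of all genes), between 0.05 and 0.33. Timm29, a further TIM22 subunit that the array lists under an older name and the rule therefore missed, stood at 0.01 (SE 0.13), lower in 2 of 4 pairs. Timm22, the insertase for carriers, rose: 3.28, 3.33, 3.45 and 3.31 in controls and 3.77, 3.62, 3.64 and 3.65 with macroH2A1.1 siRNA. The groups did not overlap, and the difference was 0.33 (SE 0.08, limma adjusted p = 0.167; paired SE 0.07, adjusted p = 0.048). Timm10, of the soluble Timm9-Timm10 chaperone, read 4.41, 4.08, 4.65 and 4.14 in controls and 4.68, 4.40, 4.69 and 4.50 with macroH2A1.1 siRNA, 0.25 higher (SE 0.14; paired adjusted p = 0.102). Its partner Timm9 differed by 0.10 (SE 0.12), with a second probe at -0.15 (SE 0.30). Timm8a1, Timm10b, Timm8b and Timm13, of the same chaperone family, differed by 0.17, 0.14, 0.13 and 0.05, with SEs from 0.08 to 0.17. The 2 kept probes of Timm8a1 ranged from -0.04 to 0.17 and the 4 of Timm10b from -0.01 to 0.21, while the 2 of Timm10 gave 0.19 and 0.25.

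Different probes of a gene did not always agree in sign. Of 19 members with several kept probes, 10 had differences of 1 sign and 9 did not, namely Slc25a44, Slc25a46, Slc25a51, Timm10b, Timm17a, Timm8a1, Timm9, Tomm20 and Tomm40. Slc25a44 is counted there with probes at -0.22 and 0.00. Timm17b is counted among the 10, although its second probe is placed on chromosome 16 and its first on X. The range between probes of a gene had a median of 0.11, close to the median SE of 0.11 for a translocase and 0.14 for a carrier, and reached 0.26 in Slc25a51. Among the called genes, only Slc25a37 had a second kept probe.

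**Figure D4:**
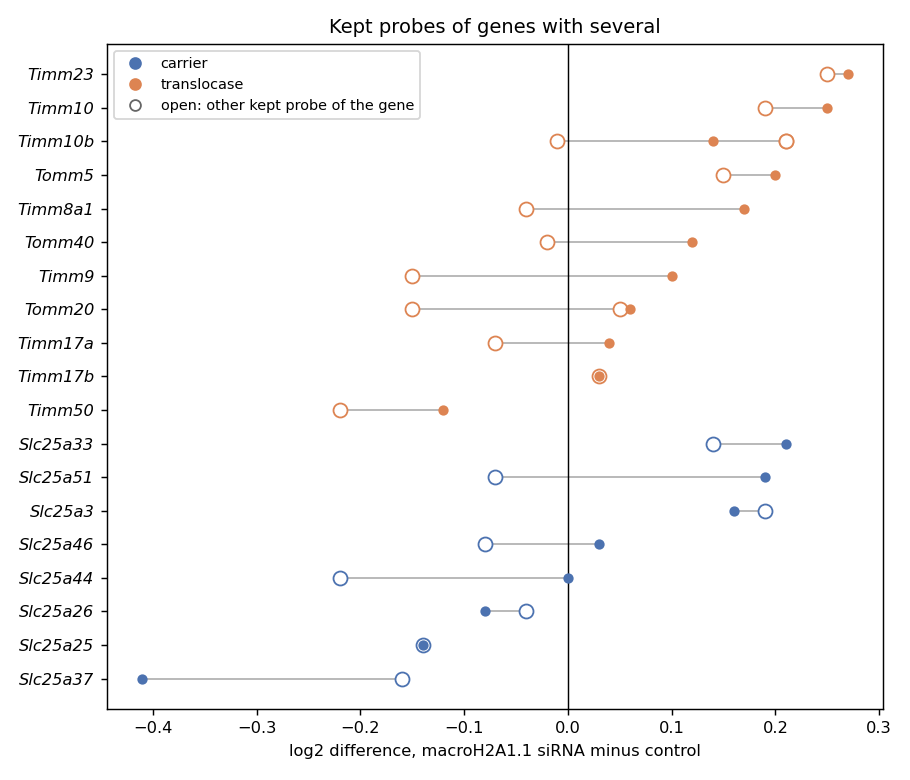
Log2 difference, macroH2A1.1 siRNA minus control, of every kept probe for the 19 members with several kept probes. Filled points are the probe that stands for the gene in the tests and open points the others. In 9 genes the probes do not share a sign, counting Slc25a44 with probes at -0.22 and 0.00.

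Lists of related genes outside the naming rule were read in the same fits. Among 19 tested carriers and channels, such as uncoupling proteins, sideroflexins, pyruvate carriers and VDAC porins, the median was 0.11. Of the 19, 15 were above 0 (78.9%, against 50.1% of all genes) and 10 were higher in all 4 pairs (52.6%, against 19.5%). In the paired comparison 0 rose (4.26% of all genes) and 1 fell (3.98% of all genes). This was Sfxn3, a sideroflexin, at -0.29 (SE 0.08, limma adjusted p = 0.229; paired 0.046). Among 28 import, processing and folding genes the median was 0.06, 0 rose and 1 fell. Pmpca, a subunit of the peptidase that cuts presequences, was at -0.65 (SE 0.14, limma adjusted p = 0.153; paired SE 0.10, adjusted p = 0.028), and its partner Pmpcb at 0.19 (SE 0.08). With the probes of Pmpca averaged, its paired difference was -0.23 (adjusted p = 0.096).

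The promoters of the members were searched for the sites of factors that drive nuclear genes of mitochondrial proteins, on both strands from 250 bases before to 50 after the start, in RefSeq promoters of GRCm38.p6 for 57 of the 71 members. The palindromic NRF1 site was in 0 of 57 members and 1.07% of all 27025 genes with a promoter. The ERRalpha letters TCAAGGTCA were in 1 member (1.75%) and 0.466% of all genes. The GABP letters CCGGAAGTG were in 4 of 21 translocases (19.0%), 0 of 36 carriers and 2.25% of all genes. The genes were Timm10, Timm23, Timm8a2 and Tomm70a, of which Timm10, Timm23 and Tomm70a differed by 0.25, 0.27 and -0.18 and Timm8a2 was not above background. The upstream matches of Timm8b, Timm23 and Tomm70a are printed with the motif in capitals (reverse complement in Timm23), at chr9:50603785-50603833 on the plus strand, chr14:32201912-32201960 on the minus strand and chr16:57121614-57121662 on the plus strand. A match of letters is a description of the window and not a bound site.
Timm8b: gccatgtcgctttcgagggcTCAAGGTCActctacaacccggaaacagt
Timm23: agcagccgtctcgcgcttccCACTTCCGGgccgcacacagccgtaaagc
Tomm70a: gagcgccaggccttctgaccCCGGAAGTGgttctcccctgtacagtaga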

How the data were processed

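Cy3-labelled RNA (500 ng per sample, per the labels' protocols) was hybridised to 8 Agilent arrays. The deposited intensity values come from Feature Extraction 10.7.3.1 with background subtraction, per the file headers, which name build mm9. The authors' deposited series values, on a log2 scale by their match to each array's signals (r from 0.9976 to 0.9995), served as an alternative. Their background handling is unknown. The 75th percentile of an array was subtracted from its log2 processed intensities, after removal of control spots and of outlier spots (143 to 236 per array). Replicate spots were averaged. Probe names followed RefSeq by accession (27509 probes), current symbol (3549) or older symbol (404), or the file's own name (1083), and 23136 probes had none. A probe was kept if every array of either group had it well above background (24988 probes), and the kept probe of highest mean stood for a gene.

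Two-sided tests used limma 3.58.1 under R 4.3.3 (functions lmFit, then eBayes) with Benjamini-Hochberg adjustment across 13578 genes and a threshold of 0.05, both unblocked and blocked by replicate number. The numbers pair the samples by a rule that every same-number correlation exceeds 0.1 (0.412 to 0.661, against -0.323 to -0.039 for other numbers), taken from the titles. Deviations within a group sum to 0, so positive same-number values make the other-number values negative on balance. Arrays of 1 number also lie side by side, so shared culture and place cannot be told apart. Array columns each held 1 group. Genes named were a fixed set per role, those called and the largest differences per family. Others listed by role were added to account for every member. Members and lists were chosen with earlier results of these data known. Alternatives were normexp (offset 50), quantile normalization, median centring, series values, other filters, probe means, row and column blocks, trended robust eBayes and leaving out arrays. Combined settings of the paired fit were added after seeing the data. The tests were run on simulated data with planted changes of 1.5-fold or more. That is larger than the difference of every member but Slc25a34, so it does not bear on smaller differences. The number of arrays limits precision. Protein sequences were not analysed here. The value of 1 tested carrier is not reported here, though it stays in the counts and medians. Python 3.11.15, pandas 2.3.3 and matplotlib 3.10.9 were used.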

Additional observations from a re-analysis of the deposited data

Results flagged for a closer look

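Over 40 values in both groups, 80 sets of 4 arrays were examined for a sample far from the others, and 3 stood out. Chance alone gives about 1 in 20 such sets. For Slc25a30, macroH2A1.1 siRNA replicate 1 stood at -0.87, with the other 3 between -0.42 and -0.39. For Slc25a4, macroH2A1.1 siRNA replicate 2 stood at 7.92, with the others between 7.63 and 7.67. For Slc25a5, control replicate 2 stood at 4.37, with the others between 3.92 and 3.98.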

How the results depend on the processing

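Without the block, limma called 3 genes and no carrier or translocase; 10 genes with the array row as a block, 7 with the array column as a random block, 1 with median centring and 0 to 11 on leaving out an array, with 0 members in each. With the replicate block it called 1118 genes, 3 carriers and 2 translocases. Leaving out a replicate pair gave 0 genes (replicate 1), 140 (2), 0 (3) and 637 (4), with 0 to 1 carriers and 0 to 1 translocases: Slc25a34 without replicate 2, and Slc25a34 and Tomm40l without replicate 4. With the block, normexp gave 1889 genes, 5 carriers and 3 translocases; quantile normalization 1064, 2 and 2; median centring 804, 2 and 0; series values 1711, 3 and 4; probe means 953, 1 and 1; and no filter 0 of 23448 genes. Of the 10 other settings of the paired comparison, Slc25a34 passed 6, Tomm40l 5, Slc25a37 4, Timm22 3 and Slc25a30 2. The translocase median was 0.17 in row 1, 0.06 in row 2 and 0.05 to 0.15 without 1 array. Of 1100 values of 38 named genes, 29 changed sign, in 8 genes whose difference was within its SE: with normexp, blocked or not, Slc25a10 0.00, Slc25a13 0.02 and Slc25a43 0.05; Timm17a -0.01 in series values and probe means; Timm9 -0.03 and Tomm20 -0.02 in probe means. Without 1 array, differences ranged from -0.31 to 0.12 (Slc25a10), -0.02 to 0.18 (Slc25a12), -0.24 to 0.04 (Slc25a13), -0.04 to 0.45 (Slc25a33), -0.45 to 0.19 (Slc25a43), -0.02 to 0.09 (Timm17a) and -0.04 to 0.11 (Tomm20). Without 1 pair, with the block, Slc25a10 ranged from -0.28 to 0.06 (0.01 without replicate 1), Slc25a12 from -0.01 to 0.23, Slc25a43 from -0.42 to 0.23 and Timm17a from -0.01 to 0.09. Of uncalled genes that kept their sign, leaving out 1 array took Slc25a5 from 0.01 to 0.23, Slc25a3 from 0.05 to 0.28, Slc25a42 from 0.14 to 0.48 and Slc25a1 from -0.46 to -0.15. With the main normalization and filter, the block changed no other member's call. Among the named members, Slc25a1 passed 2 of the 10 other paired settings, and Slc25a20, Timm23, Tomm34 and Tomm5 passed 1 each. Causes were not tested. Dim probes such as Slc25a34 limit precision.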
